A study of Mus musculus with 6 samples.

Results

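MicroRNA genes were examined in a mouse leukemia cell line named for its MLL-AF10 fusion, after exposure to an inhibitor of IKK kinases. The members are the probe sets of a whole-transcript Affymetrix array that carry 1 annotated gene symbol, where that symbol begins with Mir and a digit or with Mirlet7. There were 305 such probe sets for 300 symbols, among 21789 probe sets with 1 symbol and 35512 in all. The annotation classes 298 of them as microRNA genes and 7 as long noncoding host transcripts, which are Mir17hg, Mir100hg, Mir670hg and 4 probe sets of Mir99ahg. A further 61 probe sets carry several symbols with a microRNA among them, Mir23b, Mir27b and Mir24-1 included, and were not counted as members. Mir223, Mir21, Mir147, Mir511 and Mir486 were not analysed here.

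Cells treated with an IKK inhibitor at 0.5 µM were read on 3 arrays and cells treated with vehicle on 3 others. Both groups were the same line, grown in serum-supplemented RPMI with medium conditioned by WEHI cells. The sources used here name neither the compound nor the treatment time, and do not say how the line was made. They also do not state whether the 3 samples of a group were separate cultures. The p-values therefore rest on the spread among these 6 samples alone, part or all of which may be technical, and the number of arrays limits the precision.

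MicroRNAs are cut from long primary transcripts by Drosha and Dgcr8 in the nucleus and from the resulting hairpins by Dicer1 in the cytoplasm. The mature strand guides an Argonaute protein to messenger RNAs that pair with its seed, the short stretch near its 5′ end. Many microRNA genes lie in clusters that share a primary transcript or inside introns of a host gene. In myeloid cells Mir223 and Mir142 are abundant, Mir155 and Mir146a are known targets of NF-kB, the factor that IKK kinases release, and the Mir17 to 92a cluster is known for its role in MLL leukemias. Whole-transcript labelling primes long RNA, so the intensities below stand for RNA that overlaps a microRNA gene, its primary transcript included, and not for the mature strand.

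The mature strands of the 3 genes that changed most reproducibly are printed first, because the report returns to them. Coordinates and sequences are RefSeq's on GRCm38.p6, capitals mark the seed (bases 2 to 8), and both arms of Mir6516 are shown.
miR-6516-5p (chr11:117077370-117077391, plus strand): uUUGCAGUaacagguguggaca
miR-6516-3p (chr11:117077412-117077433, plus strand): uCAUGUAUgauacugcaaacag
miR-692 (chr17:6895259-6895279, minus strand): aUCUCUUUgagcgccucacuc
miR-409-3p (chr12:109743204-109743225, plus strand): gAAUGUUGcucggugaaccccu
No other member that matched a RefSeq mature sequence carries any of these 4 seeds.

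Mature strands of 10 other genes that passed the test are shown with a relative that shares a seed with 1 of them, miR-103-3p. The seed of let-7f-5p was found in 9 members and those of miR-107-3p and miR-7a-5p in 3 each. Those of miR-500-3p, miR-129-5p, miR-365-3p, miR-200c-3p and miR-135a-5p were found in 2 each. Only members that matched a RefSeq mature sequence were counted, so these counts can be too low.
miR-107-3p (chr19:34820700-34820722, minus strand): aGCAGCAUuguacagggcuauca
miR-103-3p (chr11:35782447-35782469, plus strand): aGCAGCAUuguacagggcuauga
let-7f-5p (chrX:151912353-151912374, plus strand): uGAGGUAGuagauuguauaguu
miR-568 (chr16:43640665-43640684, plus strand): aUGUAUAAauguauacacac
miR-500-3p (chrX:7237695-7237716, minus strand): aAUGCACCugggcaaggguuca
miR-129-5p (chr2:94241419-94241439, minus strand): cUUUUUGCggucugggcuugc
miR-365-3p (chr11:79726467-79726488, plus strand): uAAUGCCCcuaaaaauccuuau
miR-7a-5p (chr13:58392841-58392863, minus strand): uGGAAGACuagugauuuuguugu
miR-200c-3p (chr6:124718324-124718346, minus strand): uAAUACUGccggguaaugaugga
miR-697 (chr4:124731768-124731788, plus strand): aACAUCCUgguccuguggaga
miR-135a-5p (chr9:106154140-106154162, plus strand): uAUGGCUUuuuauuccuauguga

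For the clusters of interest, the strands show which genes of a cluster share a seed. The seed of miR-17-5p recurs in miR-20a-5p and that of miR-19a-3p in miR-19b-3p, whereas miR-23a-3p and miR-27a-3p differ within the seed.
miR-17-5p (chr14:115043684-115043706, plus strand): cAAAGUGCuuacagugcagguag
miR-18a-5p (chr14:115043867-115043889, plus strand): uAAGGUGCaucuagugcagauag
miR-19a-3p (chr14:115044048-115044070, plus strand): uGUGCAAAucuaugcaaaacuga
miR-20a-5p (chr14:115044183-115044205, plus strand): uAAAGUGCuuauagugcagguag
miR-19b-3p (chr14:115044358-115044380, plus strand): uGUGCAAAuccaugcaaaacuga
miR-23a-3p (chr8:84208563-84208583, plus strand): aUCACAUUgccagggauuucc
miR-27a-3p (chr8:84208727-84208747, plus strand): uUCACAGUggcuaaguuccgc
miR-24-3p (chr8:84208875-84208896, plus strand): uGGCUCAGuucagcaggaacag
miR-142a-3p (chr11:87756903-87756925, plus strand): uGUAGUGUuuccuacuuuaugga
miR-155-5p (chr16:84714143-84714165, plus strand): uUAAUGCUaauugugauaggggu

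The median intensities of the 6 arrays lay between 112 and 124. Ptprc of leukocytes, Spi1, Itgam and Csf1r of myeloid cells, and Hoxa9 and Meis1 of MLL fusion leukemia had group means of 862 to 2931. Of these, Csf1r, Itgam and Ptprc were higher with the inhibitor (limma adjusted p = 7.18e-05, 0.000439 and 0.0497). Csf1r and Itgam are also among the monocyte and macrophage markers counted below. Others of the same lists fell: Mpo, the myeloperoxidase of granulocyte precursors, averaged 124 in inhibitor arrays, against 762 in vehicle arrays, and Kit, a receptor of progenitor cells, 248 in inhibitor arrays, against 358 in vehicle arrays (limma adjusted p = 2.42e-05 and 0.0196). None of the tested T cell, B cell, erythroid or stromal markers passed the threshold, and 1 of 4 epithelial markers did, Krt8, at 218 in inhibitor arrays, against 161 in vehicle arrays. Of 13 tested monocyte and macrophage markers 11 were higher with the inhibitor and 0 lower, and their summed intensity was 19489 to 20775 in inhibitor arrays, against 10764 to 11194 in vehicle arrays. These shifts ran alongside every microRNA result below, their part in them was not tested, and a change in the make-up of the culture cannot be told apart from a change in RNA per cell.

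Few microRNA genes changed with the IKK inhibitor, and none by 2-fold. Of the 305 probe sets, 25 lay at or below the floor of 16 on all 6 arrays and were not tested, and 280 were tested with limma on log2 intensity. At a Benjamini-Hochberg adjusted p under 0.05 over all 21676 probe sets tested, 8 microRNA probe sets were higher and 7 lower with the inhibitor. These 15 are 5.36% of the tested microRNA probe sets, against 13.6% of all probe sets (7.02% higher and 6.54% lower). The probe sets are dim, with a median intensity of 49.5 against 161 for all probe sets with 1 symbol, and only 44 of them exceeded that 161. Among probe sets of every kind whose mean intensity lay between 26.8 and 128, the quartiles of the tested microRNA probe sets, 3.67% passed, against 10 of the 140 microRNA probe sets in that range (7.14%). The median log2 fold change was 0.02 over microRNA probe sets and 0.01 over all, and the median absolute value was 0.09 and 0.10. The 3 inhibitor arrays lay wholly above or below the 3 vehicle arrays for 43 microRNA probe sets (15.4%), 25 of them upward, against 33.0% of all probe sets. The count of 15 rests on all 6 arrays together: with any 1 array left out it was 4 to 14, with 14 only when inhibitor array 2 was left out.

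Mir6516, which lies in the noncoding snoRNA host gene Snhg20, fell. Its intensity was 220.0, 235 and 254 in inhibitor arrays 1 to 3, against 368, 361 and 338 in vehicle arrays 1 to 3. Every inhibitor array lay far below the lowest vehicle array. The log2 fold change was -0.59 ± 0.07 (SE), with an adjusted p of 0.0032 by limma, the smallest of any microRNA probe set. It stayed past the threshold in all 20 other settings tried, with adjusted p of 0.00729 to 0.0216 when 1 array was left out. Its host Snhg20 was not tested, and whether the probes read the hairpin or the host transcript cannot be told apart.

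Mir692-1, the brightest microRNA probe set, rose. It read 2412, 2073 and 2487 in inhibitor arrays, against 1595, 1471 and 1609 in vehicle arrays. The lowest inhibitor array, the second, was still well above the highest vehicle array. The log2 fold change was 0.57 ± 0.08 (SE, limma adjusted p = 0.00673), and all 20 other settings kept the call, with adjusted p of 0.00331 to 0.0357 when 1 array was left out.

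The identity of that signal is uncertain, because near-copies of Mir692-1 share their probe sets with another gene. The annotation places Mir692-2 and Mir692-3 on 4 probe sets together with Ftl1, which encodes the ferritin light chain, an iron storage protein abundant in macrophages. The Mir692-1 and Mir692-2 hairpins are printed to show how alike they are, with capitals marking the mature strand.
Mir692-1 (chr17:6895229-6895337, minus strand): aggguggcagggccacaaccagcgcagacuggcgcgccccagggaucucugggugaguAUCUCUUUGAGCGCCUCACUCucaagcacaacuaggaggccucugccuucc
Mir692-2 (chr4:125504749-125504857, plus strand): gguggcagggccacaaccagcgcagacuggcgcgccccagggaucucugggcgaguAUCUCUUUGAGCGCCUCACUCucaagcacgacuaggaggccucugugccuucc
Aligned over their length they have 105 identical positions, 2 mismatches and 4 gap positions, an identity of 94.6%. The mature strand of miR-692 is the same in both.

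The probe set that the annotation gives to Ftl1 alone had 5649.6, 5452 and 5865 in inhibitor arrays, against 4920.1, 4902 and 4999 in vehicle arrays. Whether it reads the Ftl1 gene or a copy of it was not checked. Its groups did not overlap, and its log2 fold change was 0.19 ± 0.05 (SE, limma adjusted p = 0.0472). The call was lost without any 1 of inhibitor arrays 1 and 3 and vehicle arrays 1 to 3 (adjusted p of 0.104 to 0.15). In a fit over every row of the table, the 4 probe sets shared by Ftl1, Mir692-2 and Mir692-3 had log2 fold changes of 0.19 to 0.27. The rise of Mir692-1 was larger than these, and the difference was not tested. Whether the Mir692-1 probe set reads RNA of Ftl1 or of its copies was not tested either.

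Mir409, in the imprinted Dlk1 to Meg3 region and inside the noncoding gene Mirg, had the largest log2 fold change of the microRNA probe sets past the threshold. Intensities were 64.9, 82.9 and 70.2 with the inhibitor, against 40.7, 49.7 and 37.9 with vehicle. Its groups were well separated, with the lowest inhibitor array above the highest vehicle array. The log2 fold change was 0.77 ± 0.13 (SE, limma adjusted p = 0.0114), and it held when any 1 array was left out (adjusted p of 0.015 to 0.0443). With a floor of 64, above all 3 vehicle values, it did not pass (adjusted p = 0.234). Mirg was not tested.

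The other 6 rises were smaller than that of Mir409, and none held when each array was left out in turn. Mirlet7f-2, 1 of the genes for the let-7 family of differentiation-linked microRNAs, had 20.6, 28.5 and 29.1 in inhibitor arrays, against 12.9, 16.5 and 17.5 in vehicle arrays, so that the vehicle values straddled the floor. Mir129-2 had 42.1, 52.4 and 66.5 with the inhibitor, against 33.9, 31.1 and 36.2 with vehicle. In both genes inhibitor array 1 was the lowest of its group and yet above every vehicle array. Their log2 fold changes were 0.63 (limma adjusted p = 0.0264) and 0.65 (limma adjusted p = 0.041). Without any 1 array other than inhibitor array 1, adjusted p was 0.0543 to 0.0919 for Mirlet7f-2 and 0.0677 to 0.139 for Mir129-2.

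Mir500, which lies in the chloride transporter gene Clcn5, had 60.2, 70.5 and 73.6 in inhibitor arrays, against 45.2, 40.2 and 54.5 in vehicle arrays. Mir568 had 33.2, 36.1 and 34.6 with the inhibitor, against 25.6, 22.5 and 29.2 with vehicle. Their groups did not overlap, though vehicle array 3 came close in both. On the log2 scale the changes were 0.55 (limma adjusted p = 0.033) and 0.43 (limma adjusted p = 0.032). Adjusted p was 0.0662 to 0.11 for Mir500 without inhibitor array 2 or 3 or vehicle array 1 or 2, and 0.0652 to 0.095 for Mir568 without any 1 array other than vehicle array 3.

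Mir107, which lies in the pantothenate kinase gene Pank1, had 142, 147 and 144 in inhibitor arrays, against 113, 111 and 126 in vehicle arrays. Mir122, whose mature strand dominates in liver, had 40.2, 42.2 and 41.02 with the inhibitor, against 33.4, 32.2 and 35.7 with vehicle. Inhibitor arrays were tight and above every vehicle array in both. The log2 fold changes were 0.31 (limma adjusted p = 0.0224) and 0.29 (limma adjusted p = 0.0208). Without inhibitor array 1 or 3 or vehicle array 1 or 2, adjusted p was 0.0632 to 0.0868 for Mir107 and 0.0565 to 0.0822 for Mir122.

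The 6 further falls were all smaller than that of Mir6516. Mir7-1, held in the RNA-binding protein gene Hnrnpk, had 162, 169.5 and 178 in inhibitor arrays, against 208, 218 and 198 in vehicle arrays. Mir365-2 had 63.8, 60.4 and 67.4 with the inhibitor, against 79.2, 80.5 and 75.03 with vehicle. Each had its 3 inhibitor arrays below the lowest vehicle array. Their log2 fold changes were both -0.29, with limma adjusted p of 0.0234 for Mir7-1 and 0.0234 for Mir365-2. Without inhibitor array 1 or any 1 vehicle array, adjusted p was 0.0518 to 0.0901 for Mir7-1 and 0.0558 to 0.0933 for Mir365-2.

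Mir200c, of the family known to keep epithelial identity, had 76.7, 77.7 and 83.5 in inhibitor arrays, against 94.9, 95.97 and 90.1 in vehicle arrays. Mir697, in the splicing factor gene Sf3a3, had 88.1, 95.7 and 93.8 with the inhibitor, against 111, 105 and 109.5 with vehicle. The groups of both lay close to each other without overlap. On the log2 scale the changes were -0.24 (limma adjusted p = 0.0361) and -0.23 (limma adjusted p = 0.037). Adjusted p was 0.0702 to 0.13 for Mir200c without any 1 array other than inhibitor array 3, and 0.0759 to 0.125 for Mir697 without any 1 array other than inhibitor array 2.

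Mir124a-3, from a family typical of neurons, had 26.2, 28.3 and 27.3 in inhibitor arrays, against 35.4, 31.7 and 31.7 in vehicle arrays. Mir135a-1 had 42.4, 47.3 and 43.1 with the inhibitor, against 54.03, 49.96 and 55.8 with vehicle. These were the dimmest of the lower probe sets, with groups that did not overlap. The log2 fold changes were both -0.27, with limma adjusted p of 0.0368 for Mir124a-3 and 0.0467 for Mir135a-1. Without any 1 array other than inhibitor array 2, adjusted p was 0.0803 to 0.126 for Mir124a-3 and 0.07 to 0.151 for Mir135a-1.

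**Figure D1:**
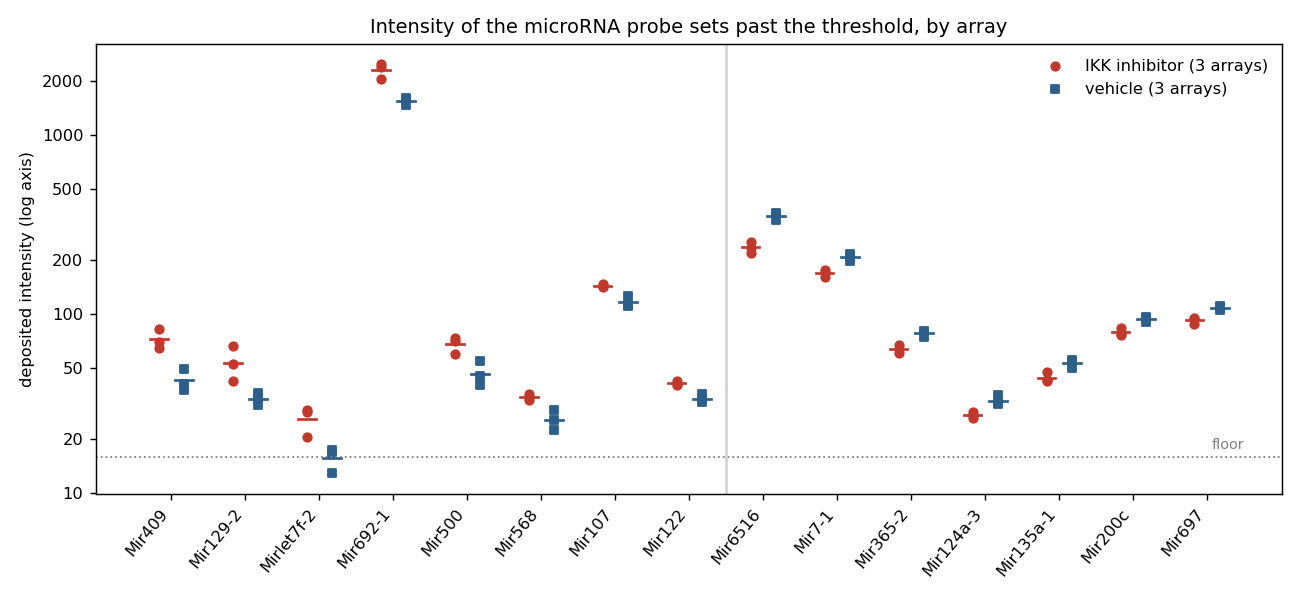
Deposited intensity (log axis) of the 15 microRNA probe sets past the threshold, by array. Circles are the 3 inhibitor arrays and squares the 3 vehicle arrays of each probe set, short lines are group means, the dotted line is the floor of 16, and the grey line parts the 8 higher from the 7 lower. In each of the 15 the groups did not overlap, and Mir692-1 stood far above the rest in brightness.

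The Mir17 to 92a cluster, whose products promote proliferation in several leukemias, gave no call. None of its 6 tested probe sets passed, against 13.6% of all probe sets. None had groups that did not overlap, against 33.0% of all. With so few probe sets, here and in the small clusters below, the absence of a call says little of a cluster. The largest difference was that of Mir19a, with 20.6, 26.2 and 20.4 in inhibitor arrays and 25.1, 33.6 and 34.8 in vehicle arrays. Inhibitor array 2 lay above vehicle array 1. Its log2 fold change was -0.47, with a 95% interval of -0.83 to -0.11 and a limma adjusted p of 0.0932. Without inhibitor array 2 or vehicle array 1 it passed, with a smallest adjusted p of 0.0385.

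Mir17hg, the noncoding host transcript of the cluster, had 38.6, 50.6 and 42.5 with the inhibitor and 49.2, 52.1 and 76.8 with vehicle. Vehicle array 3 stood apart and the groups overlapped. Its log2 fold change was -0.42 (interval -0.85 to 0.02, limma adjusted p = 0.202). The remaining members gave -0.06 for Mir17, 0.00 for Mir18, -0.10 for Mir20a and 0.09 for Mir19b-1, all at mean intensities of 24.8 to 51.6. Mir92-1 shares a probe set with Mir17hg and was not tested as a member.

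Related clusters were alike in giving no call. None of 5 probe sets of the Mir106a cluster on the X chromosome passed, and none of the 3 of the Mir106b to 25 cluster did. Mir106b, Mir93 and Mir25 had log2 fold changes of -0.01, 0.01 and -0.09. Their host gene is described further on. No probe set passed either among 6 tested of the Mir15 and Mir16 clusters, 1 of the Mir29 clusters, 2 of the Mir221 cluster, 1 of the Mir322 cluster, 9 of the Mir125 and Mir99 clusters, 6 of the Mir30 genes and 3 of the repeat-derived clusters.

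The Mir23a cluster, which favours myeloid over B cell development in mouse progenitors, was brighter and gave no call either. Mir23a had 322, 254 and 300.1 in inhibitor arrays and 304, 255 and 239 in vehicle arrays. Mir27a had 114, 121 and 139.9 with the inhibitor and 117, 109 and 103 with vehicle. The groups overlapped in both. On the log2 scale the changes were 0.13 (interval -0.15 to 0.42) for Mir23a, 0.18 (-0.03 to 0.40) for Mir27a and 0.01 (-0.22 to 0.24) for Mir24-2, and the smallest limma adjusted p was 0.256. The Mir23b cluster had 0 members, since its 3 genes share probe sets with the aminopeptidase gene Aopep.

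Of 39 tested probe sets of myeloid microRNA genes, 1 was higher, Mir107, and 1 lower, Mir7-1, both described above. The median log2 fold change of the 39 was 0.06, against 0.01 over all probe sets, and 6 of the 39 had groups that did not overlap (15.4%, against 33.0% of all probe sets). The 2 that passed are 5.13% of the 39, against 13.6% of all probe sets. Mir142, restricted to blood cells, had 135, 173 and 183 in inhibitor arrays and 126, 153 and 157 in vehicle arrays. Mir155, which rises in activated macrophages, had 64.05, 72.9 and 74.4 with the inhibitor and 66.5, 69.4 and 65.9 with vehicle. The groups overlapped in each. The log2 fold changes were 0.16 (interval -0.16 to 0.49, limma adjusted p = 0.515) and 0.06 (interval -0.10 to 0.23, limma adjusted p = 0.633).

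Mir146, the array's symbol for Mir146a, a brake on NF-kB signalling, lay near the floor. It had 16.1, 20.03 and 19.1 in inhibitor arrays and 10.9, 11.6 and 17.5 in vehicle arrays, with a log2 fold change of 0.15 (interval -0.07 to 0.37). A fold near the floor is understated, so this says little of the gene. Mir126a lay as low, at 16.1, 18.7 and 16.4 with the inhibitor and 14.2, 15.6 and 11.8 with vehicle. The remaining named genes had log2 fold changes of 0.08 for Mir146b, -0.02 for Mir150, 0.16 for Mir221 and 0.05 for Mir222, and none passed.

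The Mir181 genes, which act in lymphoid and myeloid differentiation, had higher mean values with the inhibitor in 5 of 6 probe sets, and none passed. Mir181b-1 had 290.2, 319.9 and 244 in inhibitor arrays and 234, 247 and 233 in vehicle arrays. Its inhibitor array 3 lay within the vehicle range. The log2 fold change was 0.25 (interval 0.02 to 0.49, limma adjusted p = 0.16), and it passed without inhibitor array 3 (adjusted p = 0.0339). Those of the other Mir181 genes were 0.56 for Mir181a-1, 0.27 for Mir181a-2, 0.24 for Mir181b-2, -0.03 for Mir181c and 0.12 for Mir181d. Mir181a-2 passed without vehicle array 3 (adjusted p = 0.0305).

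Among the 6 microRNA genes of the Hox clusters none passed, against 13.6% of all probe sets. Of these only Mir196b lies beside the Hoxa genes that MLL fusions activate, and the others lie on other chromosomes. Mir196b, next to Hoxa9, had 214, 209 and 232 in inhibitor arrays and 214, 195 and 201 in vehicle arrays. The ranges overlapped, and its log2 fold change was 0.10 (interval -0.05 to 0.25, limma adjusted p = 0.365). Mir10a was near the floor, at 20.8, 17.8 and 20.1 with the inhibitor and 16.7, 14.2 and 15.7 with vehicle. Those groups did not overlap, and its adjusted p of 0.0506 by limma, just outside the threshold, became 0.0165 without inhibitor array 2. Mir196a-2 had a log2 fold change of 0.42 (adjusted p = 0.133 by limma).

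**Figure D2:**
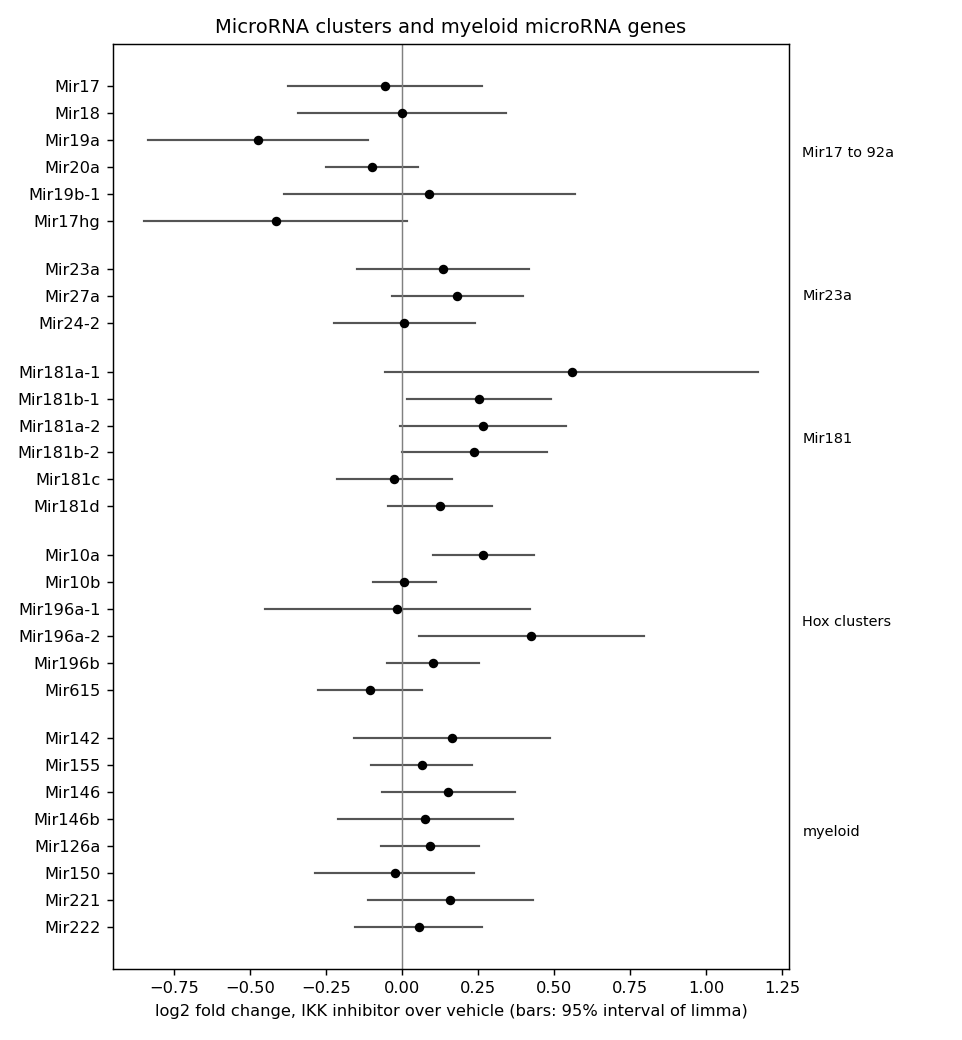
Log2 fold change (inhibitor over vehicle) of probe sets in 3 microRNA clusters or families, in the Hox clusters and of 8 myeloid microRNA genes. Points are limma estimates and bars their 95% intervals. None of the probe sets plotted passed the threshold (Mir107 and Mir7-1 are not among them), and the intervals of Mir181a-1, Mir19a, Mir17hg, Mir196a-1 and Mir19b-1 were wide.

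Genes that yield the same or nearly the same mature strand did not give the same call. Mirlet7f-1 encodes the same let-7f-5p as Mirlet7f-2, and its log2 fold change was 0.01 at a mean intensity of 13.4, under the floor. Across the 9 members in which the let-7 seed was counted 1 was called. As 13.6% of all probe sets were called, that count is not read as a result about the family. Mirlet7d and Mirlet7g had 0.23 and 0.25, with limma adjusted p of 0.0655 and 0.124. Mir103-1 and Mir103-2, whose product differs from miR-107-3p only outside the seed, had -0.05 and 0.00 against 0.31 for Mir107. Mir7-2, with the same mature strand as Mir7-1, had 0.02, against -0.29 for Mir7-1. Likewise the value was 0.06 for Mir129-1, against 0.65 for Mir129-2, and -0.08 for Mir365-1, against -0.29 for Mir365-2. Whether the members of such a pair differ from each other was not tested.

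In the Dlk1 to Meg3 region, which holds a dense run of maternally expressed microRNA genes, Mir409 passed the threshold and no other microRNA probe set did. Of 38 probe sets listed for the region, 34 were tested, 1 was higher (2.94%, against 7.02% of all probe sets), 0 were lower, and the median log2 fold change was -0.01. The groups did not overlap in 4 (11.8%, against 33.0% of all probe sets), which were Mir409, Mir665, Mir127 and Mir679. Mir665 had a log2 fold change of 0.26 ± 0.12 (SE, limma adjusted p = 0.217). Mir299a and Mir496a of the same region are not in these counts, because the list holds them under other names. They had log2 fold changes of 0.17 and -0.07 and did not pass.

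The long noncoding transcript Rian of the same region, which holds Mir341 and Mir370, rose more than any other tested host. Its intensity was 157, 143 and 237 in inhibitor arrays, against 50.4, 46.9 and 44.3 in vehicle arrays. Every inhibitor array was far above the vehicle range, and inhibitor array 3 was the highest. On the log2 scale the change was 1.89 ± 0.18 (SE, limma adjusted p = 0.0014), and it held when any 1 array was left out (adjusted p of 0.00129 to 0.0112). Mir341, among the brightest members, had 541, 525 and 542 with the inhibitor and 607, 552 and 493 with vehicle, a log2 fold change of -0.03 (interval -0.22 to 0.16). Mir370 had 0.12 (interval -0.15 to 0.39). Meg3, another noncoding gene of that region, had -0.08 and its neighbours Dlk1, Rtl1 and Dio3 had -0.05, 0.09 and 0.06, none of them past the threshold.

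Genes that hold a microRNA gene were read beside it. RefSeq bounds place 131 of the members inside another gene on the same strand, and 94 of the tested members had a tested host, in 95 pairs with 74 host genes. Of these hosts 6 were higher and 6 lower (16.2%, against 13.6% of all probe sets). In 22 pairs the host passed, and in 1 of the 22 the microRNA passed too, Mir500 with Clcn5. That is 4.55% of the 22, against 6 of all 95 pairs (6.32%) in which the microRNA passed, so these shares lie close together. In 1 of those 6 the host passed (16.7%), against 22 of all 95 pairs (23.2%).

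Clcn5 had 299.9, 327 and 284 in inhibitor arrays, against 232, 227 and 244 in vehicle arrays. It rose by 0.37 on the log2 scale (limma adjusted p = 0.0151), and adjusted p was 0.053 to 0.0672 without inhibitor array 1 or vehicle array 1 or 2. It holds 4 more tested microRNA genes, none called. These had log2 fold changes of -0.11 for Mir188, -0.06 for Mir362, -0.12 for Mir501 and -0.22 for Mir532, all of them opposite in sign to that of Mir500.

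Dleu2, the noncoding host of Mir15a and Mir16-1, which restrain the cell cycle and survival in B cells, had 58.4, 40.1 and 52.3 in inhibitor arrays, against 22.2, 12.6 and 35.4 in vehicle arrays. Vehicle array 2 was under the floor. The groups did not overlap, and the log2 fold change was 1.09 (limma adjusted p = 0.0497), with adjusted p of 0.116 to 0.149 without inhibitor array 1 or 3 or vehicle array 1 or 2. Mir15a had 75.8, 78.5 and 71.05 with the inhibitor and 85.1, 84.5 and 88.1 with vehicle. All its inhibitor arrays were below its vehicle arrays, and its log2 fold change was -0.19 (limma adjusted p = 0.0681). Mir16-1 had 0.04.

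Evl, Lpp and Pde2a were the other hosts that rose. Evl, an actin regulator that holds Mir342, had 955 ± 17.9 in inhibitor arrays and 719 ± 15.4 in vehicle arrays (SD, n = 3 each). Its log2 fold change was 0.41 (limma adjusted p = 0.00297), against 0.18 for Mir342. Lpp, a focal adhesion protein gene that holds Mir28a, had 807 ± 88.8 with the inhibitor and 447 ± 11.7 with vehicle (SD, n = 3 each). The change of Lpp on the log2 scale was 0.85 (limma adjusted p = 0.0015), against 0.07 for Mir28a. Of the other probe sets of Lpp, 1 had 0.55 and 1 had 0.01. Pde2a, the phosphodiesterase gene that holds Mir139, rose by 0.23 (limma adjusted p = 0.0193), against -0.03 for Mir139, and adjusted p was 0.0626 to 0.0837 without inhibitor array 1 or any 1 vehicle array.

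Mcm7, the replication licensing gene that hosts Mir106b, Mir93 and Mir25, fell to 1836 ± 46.6 in inhibitor arrays, against 2172 ± 58.8 in vehicle arrays (SD, n = 3 each). Its log2 fold change was -0.24 (limma adjusted p = 0.0224), and adjusted p was 0.0614 to 0.0911 without inhibitor array 1 or any 1 vehicle array. Dalrd3 fell by 0.39 on the log2 scale (limma adjusted p = 0.00723), while its microRNA genes Mir191 and Mir425 had 0.05 and -0.08. The 2610318N02Rik gene fell by 0.45 (limma adjusted p = 0.00562), against 0.04 for Mir130b and 0.07 for Mir301b. Focad fell by 0.41 (limma adjusted p = 0.00627), against -0.22 for Mir491.

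The last falls were those of Rcl1 and Nup93. Rcl1 had a log2 fold change of -0.35 (limma adjusted p = 0.0133), against 0.16 for Mir101b, and adjusted p was 0.054 to 0.0588 without inhibitor array 1 or vehicle array 2 or 3. Nup93, of the nuclear pore, had -0.30 (limma adjusted p = 0.0258), against -0.06 for Mir138-2, and adjusted p was 0.0652 to 0.0904 without inhibitor array 1 or any 1 vehicle array. Among microRNA probe sets past the threshold, the host's log2 fold change was -0.13 for Pank1 with Mir107, 0.02 for Hnrnpk with Mir7-1, 0.03 for Huwe1 with Mirlet7f-2, -0.16 for Sf3a3 with Mir697 and -0.04 for Mir670hg with Mir129-2. None of these 5 hosts passed, and the differences between host and microRNA were not tested.

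**Figure D3:**
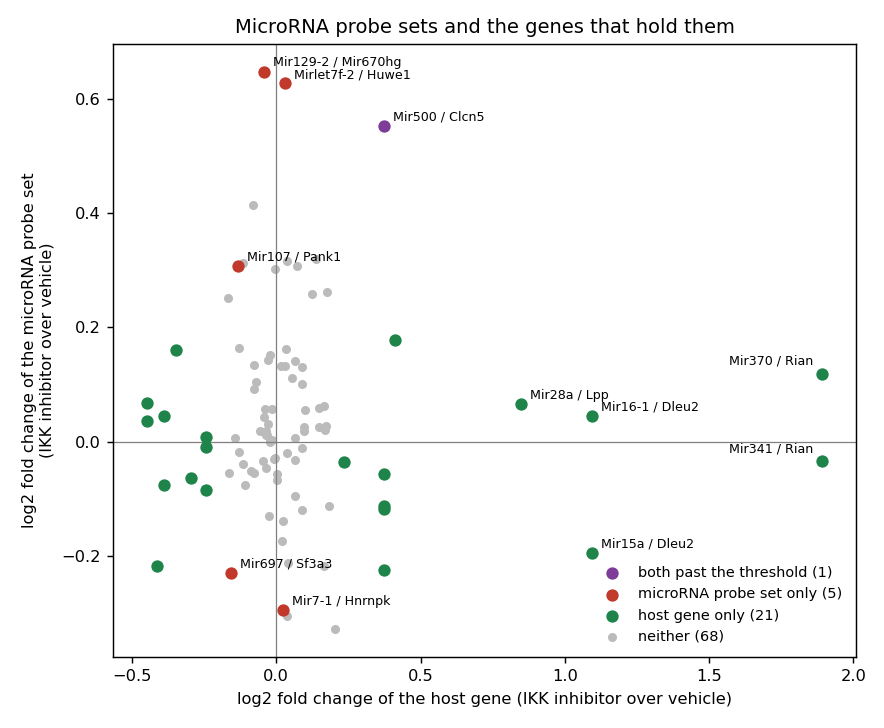
Log2 fold change (inhibitor over vehicle) of 95 pairs of a microRNA probe set (vertical axis) and the gene that holds it (horizontal axis). Colours mark the 1 pair in which both passed the threshold, 5 in which only the microRNA did, 21 in which only the host did and 68 in which neither did. Rian, Dleu2 and Lpp lie far to the right, while their microRNA genes lie between -0.19 (Mir15a) and 0.12 (Mir370).

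The brightness of a microRNA probe set followed the base composition of its hairpin, which bears on what a difference at these intensities can show. The lowest and the highest GC shares among the members, 28.4% in Mir190a and 69.2% in Mir212, are shown by the hairpins with G and C in capitals.
Mir190a (chr9:67236660-67236726, minus strand): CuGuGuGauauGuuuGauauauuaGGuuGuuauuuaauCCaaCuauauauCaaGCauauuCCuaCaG
Mir212 (chr11:75173388-75173478, plus strand): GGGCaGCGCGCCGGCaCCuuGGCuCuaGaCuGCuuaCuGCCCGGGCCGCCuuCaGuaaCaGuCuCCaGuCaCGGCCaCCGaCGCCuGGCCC
Mir190a had a mean intensity of 9.85 and Mir212 of 262. Over the 260 members with a RefSeq hairpin, GC share and mean log2 intensity had a Pearson r of 0.77 and a Spearman rho of 0.80, a description across probe sets of the same 6 arrays. Median intensity was 16.9, 35.0, 58.4 and 135 in 4 groups of like size, from the lowest GC share to the highest. Intensities of different probe sets are therefore not set against each other as RNA levels here. The share past the threshold did not follow GC in that way, at 6.82%, 4.76%, 6.06% and 4.69% of the tested members of each group. Arrays of the same treatment differed in the group of highest GC share. There the median log2 deviation from the mean of each probe set was 0.10 in vehicle array 1 and -0.08 in vehicle array 3. It was -0.07 in inhibitor array 2 and 0.06 in inhibitor array 3.

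**Figure D4:**
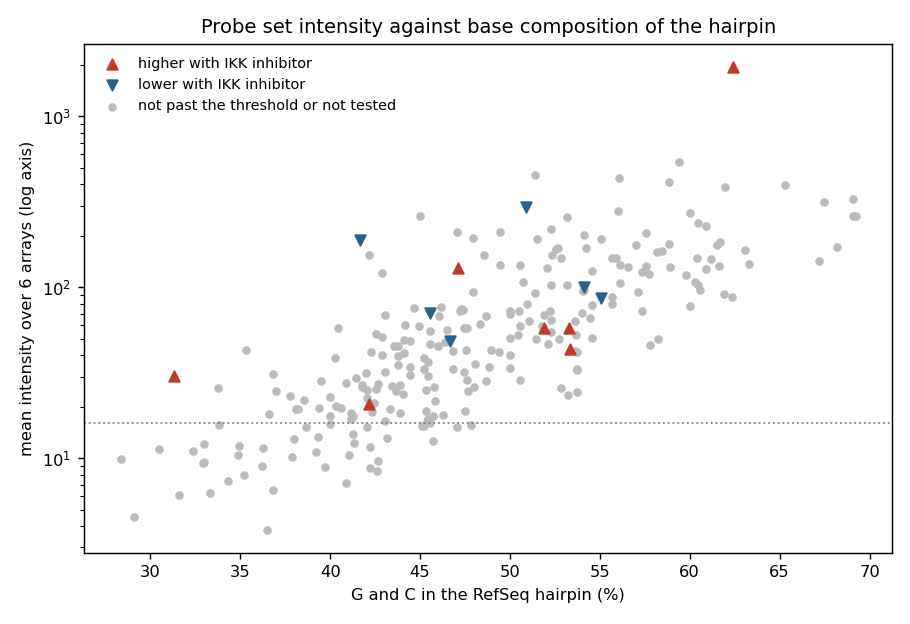
Mean intensity over the 6 arrays (log axis) against the share of G and C in the RefSeq hairpin for 260 microRNA probe sets. Triangles pointing up are higher and triangles pointing down lower with the inhibitor, grey points did not pass or were not tested, and the dotted line is the floor of 16. Brightness climbs with GC share, and the changed probe sets are spread along it.

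Besides Mir692-1, the brightest members were Mir341, Mir181d, Mir668, Mir328, Mir139, Mir346 and Mir667, with mean intensities of 388 to 543. None passed, and their log2 fold changes ran from -0.09 for Mir668 to 0.12 for Mir181d. Probe sets of 16 microRNA genes best known from other tissues were listed after the data had been seen. The tissues are liver, brain, muscle, heart, pancreas and embryonic stem cells, though Mir9-1 and Mir9-3 of the brain are also on the myeloid list. The 16 had mean intensities of 6.2 to 142, with a median of 31.1. The brightest was Mir375 of the pancreas, with a GC share of 67.2%, and 247 of the members (81.0%) were no brighter than it. As brightness followed GC share, that count does not show which members are expressed. Mir122 and Mir124a-3 of these 16 passed the threshold, while Mir1a-2, Mir217 and Mir302b were not tested. As 13.6% of all probe sets passed, these calls are not read as a result about the 16 genes. Symbols read by several probe sets gave no call: the 3 of Mir713 had log2 fold changes of -0.21 to -0.11 and the 4 of Mir99ahg of -0.44 to 0.15.

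Genes that make and use microRNAs changed in part. Of 30 tested, 2 were higher and 5 lower with the inhibitor (against 7.02% and 6.54% of all probe sets), and their median log2 fold change was -0.01. Zc3h12a, which encodes the RNase regnase-1, known to cut inflammatory messenger RNAs and microRNA hairpins, rose. Its intensity was 782, 785 and 781 in inhibitor arrays, against 419.6, 436 and 459 in vehicle arrays. The inhibitor arrays were nearly equal and far above the vehicle arrays. The log2 fold change was 0.84 ± 0.05 (SE, limma adjusted p = 0.000242), past the threshold in all 20 other settings.

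Gemin4, of the SMN complex and found with Argonaute, fell. It had 259, 256 and 272 in inhibitor arrays, against 323, 367 and 362.8 in vehicle arrays. All inhibitor arrays lay below all vehicle arrays. Its log2 fold change was -0.42 ± 0.07 (SE, limma adjusted p = 0.00971), again past the threshold in all 20 other settings. Lin28b, which blocks let-7 processing, had 48.4, 52.5 and 45.2 with the inhibitor, against 62.04, 71.4 and 73.7 with vehicle. Its groups did not overlap, with a log2 fold change of -0.50 (limma adjusted p = 0.0132) and adjusted p of 0.053 to 0.0607 without inhibitor array 1 or vehicle array 2 or 3.

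Other changes among these genes were small. Srrt, which links the cap-binding complex to Drosha, had a log2 fold change of -0.28 (limma adjusted p = 0.0291), with adjusted p of 0.069 to 0.111 without any 1 array other than inhibitor array 2. The editing enzyme gene Adar had -0.24 (limma adjusted p = 0.0291), with 0.071 to 0.111 as adjusted p without inhibitor array 1 or 3 or vehicle array 2 or 3. Tut7, a terminal uridylyltransferase of let-7 hairpins, had 0.19 (limma adjusted p = 0.0432), and Khsrp, a hairpin-binding splicing protein, had -0.18 (limma adjusted p = 0.0493). Neither passed without any 1 of the 6 arrays (adjusted p of 0.0638 to 0.135 for Tut7 and 0.0797 to 0.164 for Khsrp).

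The core enzymes did not pass. Log2 fold changes were -0.13 for Drosha, -0.06 for Dgcr8, -0.11 for the exporter Xpo5, 0.03 for Dicer1 and -0.03 for Ago2. Their 95% intervals ran from -0.26 to -0.01 for Drosha and from -0.08 to 0.14 for Dicer1.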

How the data were processed

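Biotin-labelled sense-strand targets of total RNA from the 6 samples were read on Affymetrix whole-transcript arrays, per the labels' protocols. Per the submitters' processing notes, the deposited intensity values come from Affymetrix Expression Console. Its version and how the values were background-corrected and normalized are not given in those sources. The table holds no detection calls. The values are on a linear scale. Groups were taken from the treatment labels.

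Values below 16 were set to 16, which understates the folds of dim probe sets, and log2 was taken. Probe sets were named through the platform annotation, with symbols updated through Entrez numbers for 21698 of the 21789 that have 1 symbol. Of these, 113 never exceeded the floor and were left out. On the 21676 others limma 3.58.1 was run in R 4.3.3 with lmFit, eBayes and no covariate, 2-sided, and the p-values were adjusted by the Benjamini-Hochberg method over all 21676, with a threshold of 0.05. SE and 95% intervals are those of the fit. For host and machinery genes with several probe sets, the brightest was used. Hosts are genes whose RefSeq bounds on GRCm38.p6 enclose the microRNA gene on the same strand, and exons were not used. Of the members, 272 matched a RefSeq mature sequence and 260 a hairpin. The fit was tested on simulated data.

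The members, the lists of clusters, myeloid genes, Hox genes, let-7 genes, machinery and markers, and the rule for named genes (every member past the threshold, the 8 brightest, the listed clusters, their hosts and the changed machinery genes) were chosen with earlier results of these data known. Genes named besides these were chosen after their values were seen. Also tried were the replicate number as a block, other scalings, floors, filters, probe set choices, priors, array weights and thresholds, and leaving out each array.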

Additional observations from a re-analysis of the deposited data

How the results depend on the processing

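In every alternative that tested them, Mir6516, Mir692-1, Zc3h12a and Gemin4 kept their direction and their call. None of the 35 named genes past the threshold changed sign in any alternative, while 12 of 31 named genes that did not pass did. Single genes kept their side of the threshold in 1155 of 1367 comparisons with an alternative. The main counts were 8 higher and 7 lower microRNA probe sets, 1522 and 1417 of all probe sets, 6 and 6 hosts, and 2 and 5 machinery genes. Where a count moved by over 1.5 times, the cause was not tested beyond what a setting itself changes. The replicate numbers in the titles gave no clear pairing of the arrays. Correlations of deviations for equal numbers were 0.244, 0.129 and -0.0899, against -0.282 to 0.174 for unequal numbers. Whether the arrays were paired cannot be told from 3 arrays per group. With the replicate number as a block, 6 microRNA probe sets were higher and 1 was lower, 6 of these 7 being among the 15, with 708 of all probe sets lower and machinery counts of 1 higher and 3 lower. A floor of 1 gave 13 higher microRNA probe sets. A floor of 64 gave 4, and 4 higher machinery genes. Keeping probe sets above the 25th percentile of intensity gave 3 higher microRNA probe sets and 4 higher machinery genes. Above the median, it was 1 higher and 2 lower microRNA probe sets, 2349 of all lower, and 4 higher and 8 lower machinery genes. Testing every row gave 4 higher and 3 lower microRNA probe sets and 1 higher and 2 lower machinery genes. Centring arrays on their medians gave 940 higher of all, and 1 higher and 2 lower machinery genes. An intensity trend with a robust prior gave 3 lower microRNA probe sets, 2363 lower of all, 10 higher hosts and 9 lower machinery genes. Array weights gave 15 lower microRNA probe sets, 2314 higher and 2363 lower of all, and 4 higher machinery genes. An adjusted p under 0.01 left 1 higher and 1 lower microRNA probe set, 678 and 314 of all, 3 and 3 hosts, and 1 and 1 machinery gene. Under 0.1 there were 12 lower microRNA probe sets, 2157 lower of all and 4 higher machinery genes. With 1 array left out, microRNA probe sets numbered 3 to 9 higher and 1 to 7 lower, all probe sets 804 to 1610 higher and 387 to 1372 lower, hosts 3 to 6 higher and 3 to 6 lower, and machinery genes 1 higher in each case and 1 to 5 lower. Values at or below the floor cannot show a difference from each other, and these were 14.8% of microRNA values, against 5.95% of all values. The median residual SD on the log2 scale was 0.14 for microRNA probe sets, against 0.09 for all, and 0.13 for both between the quartiles of microRNA intensity.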

Other observations

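Probe sets that carry several symbols with a microRNA among them were not members, and were read only in the fit over every row of the table. Of the 61, 48 were tested there with limma, 2 were higher and 1 lower with the inhibitor (6.25%, against 7.35% of all rows in that fit).

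At an unadjusted p under 0.05 by limma there were 40 microRNA probe sets (14.3% of those tested), against 5883 of all probe sets (27.1%).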
